A study of Mus musculus with 6 samples.

Results

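Nuclear-encoded subunits of the mitochondrial respiratory chain were compared between WT and Rac1-/- mammary glands collected at involution day 2. A list of 35 genes was taken by symbol: 18 subunits of complex I, 4 of complex II, 6 of complex III, cytochrome c, and 6 of complex IV. Ndufa4 was counted with complex I by its name. Of these, 34 were measured on a probe set that names only that gene, among 18194 genes measured in all, and each gene took its probe set with the highest mean over the 6 arrays. The remaining member, Ndufs6, shares its only probe set with Ndufs6b and was not analysed here. Every mouse carried loxP-flanked Rac1 alleles (Rac1fx/fx) and the RosaYFP reporter. The 3 Rac1-/- mice (Nas496, Nas497 and Nas518) also carried the WAPiCre transgene, in which the whey acidic protein promoter drives Cre in luminal epithelial cells, and the 3 WT mice (Nas478, Nas483 and Nas484) had no Cre. The mice were matched for age, and total RNA came from inguinal gland number 4 of each animal, 1 Affymetrix array per mouse. Whole glands were used, so stromal, fat, immune and myoepithelial cells with intact Rac1 were in every sample, and fewer cells of a type and less RNA per cell cannot be told apart.

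Complex I oxidizes NADH and complex II oxidizes succinate, and both pass electrons to ubiquinone. Complex III moves them on to cytochrome c, and complex IV uses them to reduce oxygen. Complexes I, III and IV pump protons, and ATP synthase spends that gradient. A few core subunits come from mitochondrial DNA, while most subunits, and all of complex II, are encoded in the nucleus and imported. Secretory alveolar cells of the lactating gland are rich in mitochondria, and during involution these cells are lost while adipocytes refill the gland.

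Many nuclear genes for respiratory chain subunits are known targets of the transcription factors NRF1, GABPA (an ETS factor) and YY1. RefSeq promoter windows (250 bases before and 50 after the start) were found for 24 of the 34 measured subunits. The bases before the start are shown for Ndufs8 and Ndufa9, which had the lowest and the highest difference between genotypes, and for Sdhd and Cycs, which hold motif matches there. The sequences are in gene orientation, 5′ to 3′, and capitals mark matches to the motifs searched on both strands: CGCANGCG for NRF1, CCGGAAG for ETS, ATGGCG for YY1 and GGGCGG for Sp1.
Ndufs8 (GRCm38.p6 chr19:3912775-3913024, minus strand): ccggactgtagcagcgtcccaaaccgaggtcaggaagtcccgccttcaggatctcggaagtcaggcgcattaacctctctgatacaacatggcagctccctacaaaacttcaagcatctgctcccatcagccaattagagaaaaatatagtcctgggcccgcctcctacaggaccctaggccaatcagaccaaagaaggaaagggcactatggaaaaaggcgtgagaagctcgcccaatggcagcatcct
Ndufa9 (GRCm38.p6 chr6:126849145-126849394, minus strand): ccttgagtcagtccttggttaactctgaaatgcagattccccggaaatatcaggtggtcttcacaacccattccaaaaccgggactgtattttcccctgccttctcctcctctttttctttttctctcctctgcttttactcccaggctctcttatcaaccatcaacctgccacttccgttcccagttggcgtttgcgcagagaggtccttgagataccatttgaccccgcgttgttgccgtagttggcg
Sdhd (GRCm38.p6 chr9:50603850-50604099, minus strand): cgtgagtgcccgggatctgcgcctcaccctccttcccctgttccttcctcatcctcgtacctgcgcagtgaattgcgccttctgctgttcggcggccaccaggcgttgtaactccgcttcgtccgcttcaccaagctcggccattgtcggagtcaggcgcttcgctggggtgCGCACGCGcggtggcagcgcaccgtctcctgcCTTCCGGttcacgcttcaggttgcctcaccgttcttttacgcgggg
Cycs (GRCm38.p6 chr6:50566570-50566819, minus strand): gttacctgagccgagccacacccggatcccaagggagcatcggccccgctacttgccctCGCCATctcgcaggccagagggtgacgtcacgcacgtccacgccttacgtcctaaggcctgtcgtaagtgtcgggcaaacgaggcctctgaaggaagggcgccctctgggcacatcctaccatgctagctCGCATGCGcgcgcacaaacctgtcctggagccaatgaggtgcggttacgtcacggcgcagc

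In Sdhd the NRF1 letters lay 78 to 71 bases and the ETS letters 46 to 40 bases before the start. In Cycs the NRF1 letters lay 61 to 54 bases and the YY1 letters 191 to 186 bases before it. The windows of Ndufs8 and Ndufa9 before the start held none of the 4 motifs. With the bases after the start included, Ndufs8 held the ETS motif and Ndufa9 the YY1 motif. Both genes are part of the counts that follow. Over whole windows (any window of a gene with several starts), the NRF1 motif was in 6 of 24 subunit genes (25%, against 14.8% of the 14453 array genes with a window), the ETS motif in 5 (20.8%, against 15.0%), the YY1 motif in 8 (33.3%, against 14.1%) and the Sp1 motif in 10 (41.7%, against 57.3%). Any of the first 3 was found in 16 of 24 (66.7%, against 35.2%). The YY1 letters can coincide with a start codon, since they begin with ATG, and no overlap between the 4 motifs was removed. A match is a description of letters in the window and was not tested as a binding site.

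None of the subunits passed the test between genotypes. At an adjusted p under 0.05 (limma, Benjamini-Hochberg over all 18194 genes) 0 subunits were called, as were 0% of all genes, and the smallest adjusted p of a subunit was 0.946. At an unadjusted p under 0.05, 0 subunits were higher in Rac1-/- glands, where 2.23% of all genes were, and 0 were lower, where 1.82% were. In 0 subunits did the 3 Rac1-/- mice lie entirely above the 3 WT mice (5.41% of all genes) and in 0 entirely below (4.2%). The mean was lower in Rac1-/- glands for 24 subunits and higher for 10, with a median log2 difference (Rac1-/- minus WT) of -0.27 against 0.060 over all genes. Many subunits are bright on the array, and 33 of 34 lay above the median mean level. Among all genes above that level, the median difference was -0.028, and 52.0% had the lower mean in Rac1-/- glands.

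**Figure D1:**
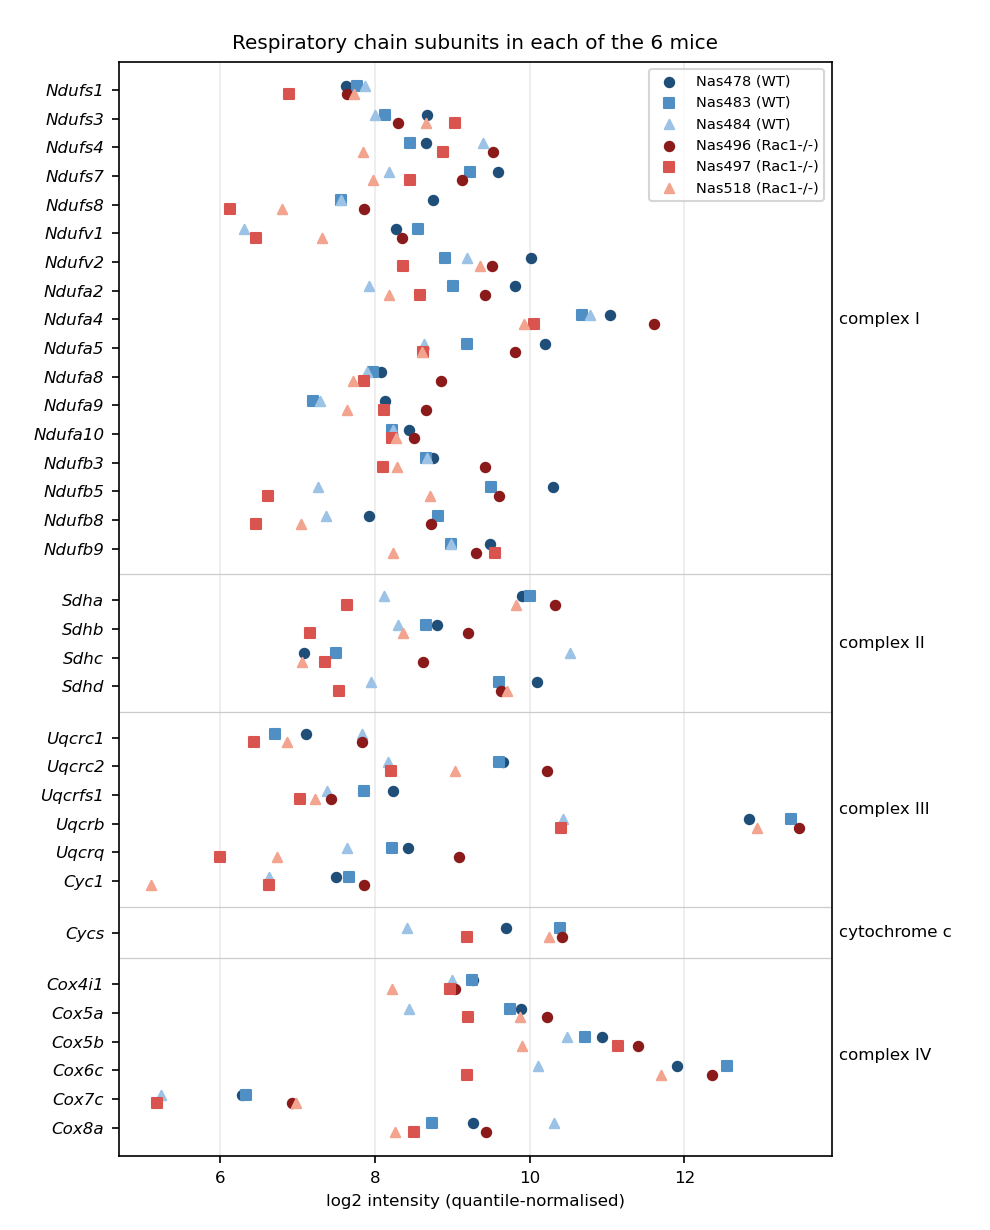
Log2 intensity (quantile-normalised) of the 34 measured subunits in each of the 6 mice, WT in blue and Rac1-/- in red, grouped by complex. The groups overlap in all 34 rows, and levels can be compared within a row but not between genes.

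The precision of 3 mice a group limits these values. The 95% interval of the difference had a median half-width of 1.31 on the log2 scale, and over the subunits the intervals ran from -2.91 to 2.31. For 28 of 34 subunits the interval still held a log2 difference of -1, and for 20 it held a difference of 1. In 31 of 34 the difference between genotypes was smaller than the range among the 3 WT mice. The median spread within a group was 0.73 (SD, log2) for the subunits, 0.69 for all genes and 0.61 for genes above the median mean level.

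Among the complex I subunits, 13 of 17 had the lower mean in Rac1-/- glands, with a median difference of -0.29. Ndufs8, an iron-sulfur subunit near the ubiquinone end of the electron path, had log2 intensities of 8.76, 7.57 and 7.56 in WT and 7.86, 6.13 and 6.80 in Rac1-/- mice (in the order of the mice given above, as throughout). Nas497 and Nas518 lay below every WT mouse, whereas Nas496 lay above 2 of the 3. The difference was -1.03 (SE 0.60, adjusted p = 0.946 in limma), the lowest of the 34. Its neighbour in the complex, the iron-sulfur subunit Ndufs7, had 9.59, 9.23 and 8.18 in WT and 9.13, 8.46 and 7.97 in Rac1-/- mice, a difference of -0.48 (SE 0.55). Ndufb8, an accessory subunit of the membrane arm, had 7.93, 8.82 and 7.37 in WT and 8.73, 6.46 and 7.05 in Rac1-/- mice, a difference of -0.62 (SE 0.68). Below the WT range lay only Nas518 for Ndufs7, and Nas497 and Nas518 for Ndufb8, and Nas496 was within it in both genes. Ndufs1, the large iron-sulfur subunit of the NADH-oxidizing module, spanned 0.25 in WT (7.63, 7.78 and 7.88), and of the Rac1-/- mice (7.64, 6.90 and 7.74) only Nas497 fell outside that range. Its difference was -0.34 (SE 0.45).

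A pair of the complex I subunits with the smallest p ran the other way. Ndufa9, an accessory subunit close to the ubiquinone site, had 8.13, 7.21 and 7.29 in WT and 8.66, 8.12 and 7.64 in Rac1-/- mice, a difference of 0.60 (SE 0.50) and the highest of the 34. Ndufs3, a core subunit of the peripheral arm, had 8.68, 8.14 and 8.0 in WT and 8.30, 9.04 and 8.67 in Rac1-/- mice, a difference of 0.40 (SE 0.45). In both, the WT mouse Nas478 lay above 2 of the 3 Rac1-/- mice. The other complex I subunits lay between a difference of -0.71 for Ndufb5 and 0.16 for Ndufa8. Ndufb5 was the most variable subunit over the 6 mice, from 6.62 in Nas497 to 10.31 in Nas478, and Ndufa10 the least, with a range of 0.29 and a difference of 0.036. Ndufb3 held the 3 WT mice within 0.095 (8.75, 8.66 and 8.68), while its Rac1-/- mice lay on both sides (9.42, 8.10 and 8.29) and the difference was -0.091. Ndufa4 was counted here with complex I by its name but is known as a complex IV subunit. It showed the same layout, with 11.04, 10.68 and 10.79 in WT and 11.61, 10.06 and 9.93 in Rac1-/- mice, a difference of -0.30. Of the remainder, the differences were -0.33 for Ndufv1, the NADH-binding flavoprotein, -0.29 for Ndufv2, its iron-sulfur partner, -0.33 for Ndufa5, -0.19 for Ndufa2, -0.12 for Ndufb9 and -0.089 for Ndufs4. Ndufb5, Ndufb3, Ndufa4 and Ndufa10 were chosen as examples after their values were seen.

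All 4 complex II subunits had the lower mean in Rac1-/- glands, as 46.1% of all genes did, with a median difference of -0.30. Without Nas497 that median was 0.34, and 1 of the 4 had the lower mean. With any other single mouse left out, 2 to 4 had it. Sdha, the flavoprotein that oxidizes succinate, had 9.90, 10.01 and 8.12 in WT and 10.33, 7.64 and 9.82 in Rac1-/- mice. In each group 1 mouse, Nas484 and Nas497, lay well below the other 2, and the difference of the means was -0.07 (SE 0.81). Sdhc, a membrane anchor, had 7.09, 7.50 and 10.53 in WT and 8.63, 7.36 and 7.06 in Rac1-/- mice. Its difference of -0.69 (SE 0.91) rested on Nas484, and without that mouse it was 0.39. This probe set is of a kind that can match other genes. On the other Sdhc probe set Nas484 did not stand out. It had 7.08, 7.24 and 7.39 in WT and 7.99, 6.33 and 6.30 in Rac1-/- mice, a difference of -0.36. The differences of the iron-sulfur subunit Sdhb and of the other anchor Sdhd were -0.34 and -0.26.

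Complex III had 4 of 6 subunits with the lower mean and a median difference of -0.39. Uqcrfs1, the Rieske iron-sulfur protein, had 8.23, 7.86 and 7.38 in WT and 7.43, 7.03 and 7.23 in Rac1-/- mice, a difference of -0.60 (SE 0.45, adjusted p = 0.946 in limma). The groups overlapped by 0.051, since only Nas496 reached above Nas484. Uqcrq, a small membrane subunit, had 8.43, 8.22 and 7.64 in WT and 9.09, 6.01 and 6.74 in Rac1-/- mice, so that Nas496 was the highest and Nas497 the lowest of all 6. The difference was -0.82 (SE 0.77). Cyc1, the cytochrome c1 that hands electrons to cytochrome c, had 7.50, 7.67 and 6.64 in WT and 7.86, 6.63 and 5.11 in Rac1-/- mice, a difference of -0.73 (SE 0.71). Uqcrc1, a core protein, had 7.12, 6.72 and 7.84 in WT and 7.84, 6.44 and 6.86 in Rac1-/- mice, a difference of -0.18 (SE 0.54). The differences of the other core protein Uqcrc2 and of Uqcrb were 0.010 and 0.060.

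Cytochrome c and complex IV did not share 1 direction. Cycs, the soluble cytochrome c that also takes part in apoptosis, had 9.70, 10.40 and 8.41 in WT and 10.41, 9.19 and 10.25 in Rac1-/- mice, a difference of 0.45 (SE 0.63). Without the WT mouse Nas484 it was -0.095. In complex IV, counted without Ndufa4, 3 of 6 subunits had the lower mean, with a median difference of -0.16. Cox4i1, the largest nuclear-encoded subunit, had 9.27, 9.26 and 9.0 in WT and 9.04, 8.98 and 8.22 in Rac1-/- mice, a difference of -0.43 (SE 0.45). Only Nas496 among the Rac1-/- mice lay above a WT mouse, by 0.036. Cox8a had 9.26, 8.75 and 10.31 in WT and 9.44, 8.51 and 8.26 in Rac1-/- mice, a difference of -0.70 (SE 0.57). The others were -0.43 for Cox6c, 0.10 for Cox5b and 0.41 for both Cox5a and Cox7c.

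**Figure D2:**
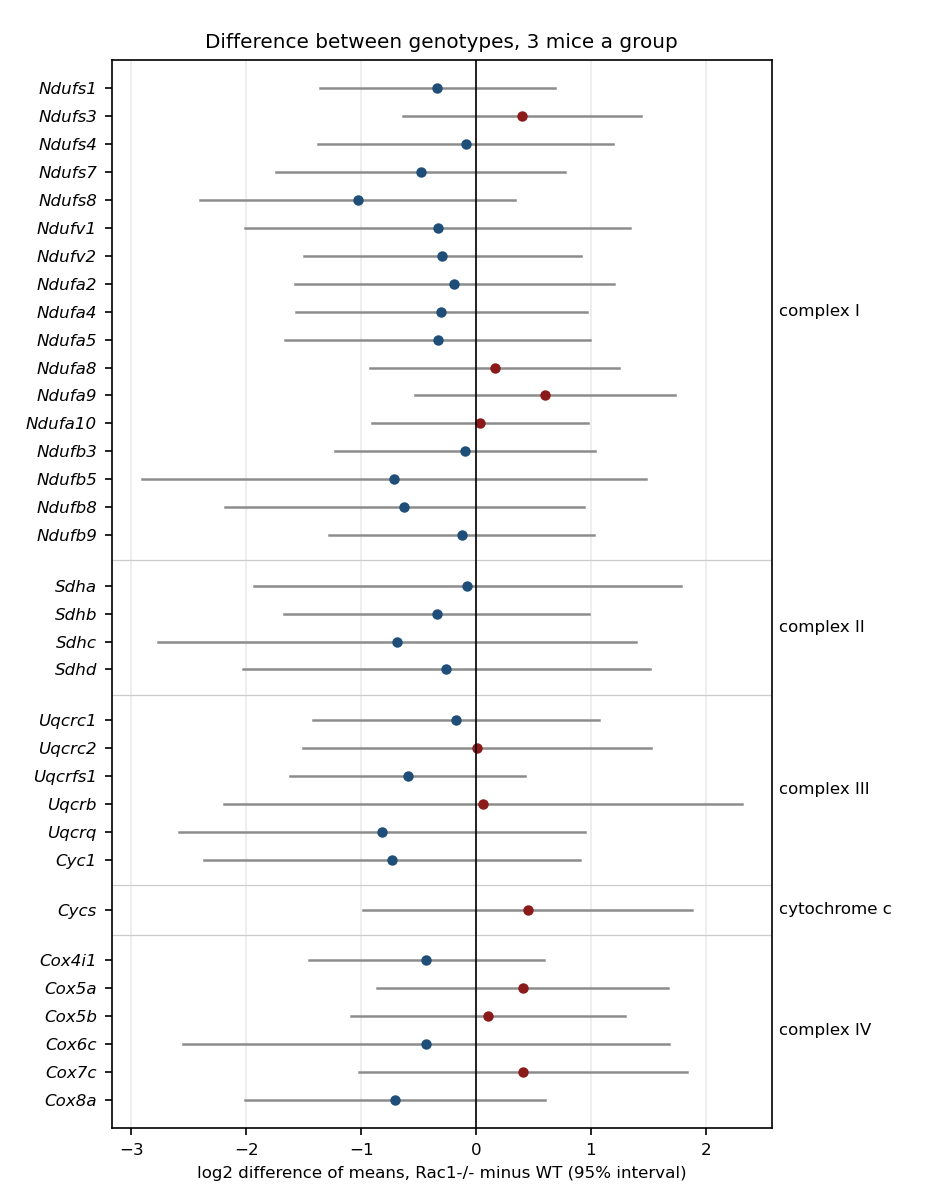
Log2 difference of the group means (Rac1-/- minus WT) for each subunit, with its 95% interval from limma, 3 mice a group, blue points below and red points above 0. Each of the 34 intervals crosses 0, and the points run from -1.03 for Ndufs8 to 0.60 for Ndufa9.

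Most subunits were high or low in the same mice, across genotypes. Relative to each gene's mean over the 6 mice, the median subunit stood at 0.37 in Nas478, 0.19 in Nas483 and -0.27 in Nas484 of the WT group, and at 0.69 in Nas496, -0.60 in Nas497 and -0.29 in Nas518 of the Rac1-/- group. The highest and the lowest mouse therefore both belonged to the Rac1-/- group. Nas496 was above Nas497 in 32 of 34 subunits (44.9% of all genes). This pair was picked from the same subunits, so their share is not alike to the one over all genes. A Rac1-/- mouse was both the highest and the lowest of the 6 in 12 of 34 subunits, and in 22.7% of all genes. The WT group held both extremes in 2 subunits, and in 14.3% of all genes. The lowest mouse was Nas497 for 15 subunits (19.8% of all genes), Nas518 for 11 (17.9%), Nas484 for 6 (13.2%) and Nas483 for 2 (18.1%). The highest was Nas496 for 15 subunits (12.9% of all genes), Nas478 for 9 (11.8%) and Nas484 for 4 (17.3%). It was Nas483 for 3 (12.7%), Nas497 for 2 (30.9%) and Nas518 for 1 (14.4%). This layout was not particular to the 34 subunits, as the mean deviation of other lists shows. For 24 further subunits of complexes I to IV it was 0.50, 0.21 and -0.28 in WT, against 0.53, -0.46 and -0.51 in Rac1-/- mice. For 46 cytosolic ribosomal proteins it was 0.48, 0.15 and -0.38, against 0.30, -0.23 and -0.32. The 14 glycolysis enzymes did not follow it and were highest in Nas497 (0.24).

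**Figure D3:**
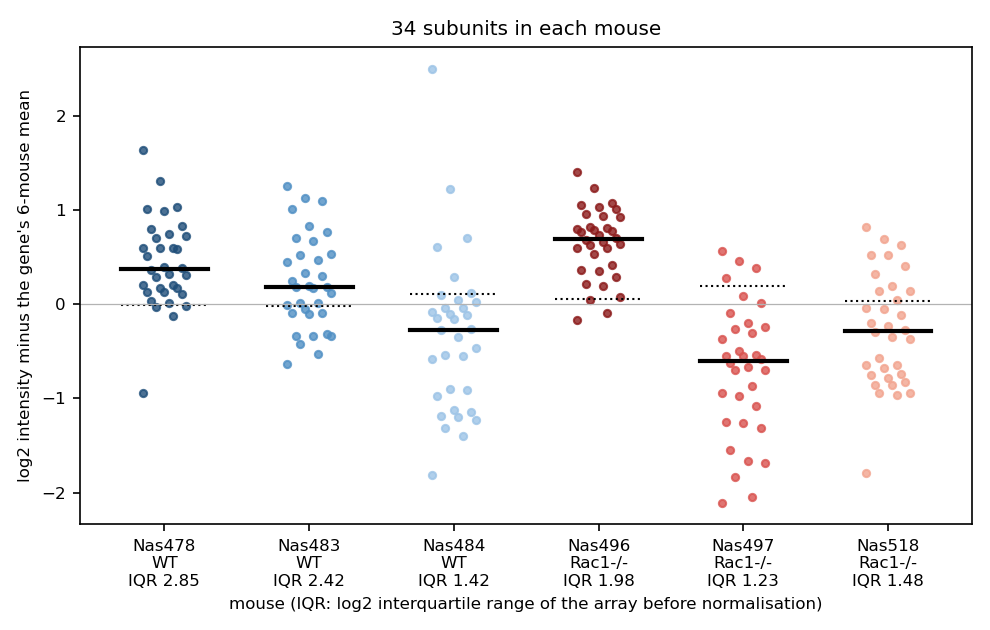
Each point is 1 of the 34 subunits, plotted as its log2 intensity minus the gene's mean over the 6 mice, by mouse; solid bars are medians of the subunits and dotted bars medians of all genes. The subunit medians run from -0.60 in Nas497 to 0.69 in Nas496, both Rac1-/-, and the number under each mouse is the interquartile range (IQR) of its array.

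The spread of the arrays moved with this pattern. Before normalisation the log2 intensities had an interquartile range of 2.85, 2.42 and 1.42 for WT, against 1.98, 1.23 and 1.48 for Rac1-/- mice, so the subunits were high on the 3 arrays with the wide range and low on the 3 with the narrow range. The actin controls, which bear on RNA quality, were read as the log2 signal of the 3' probe set minus that of the 5' one. They gave 0.048, 0.033 and -0.17 for WT against -0.42, -1.24 and -0.30 for Rac1-/- mice. A negative value means more 5' than 3' signal, and which mouse had the poorer RNA was not judged from it. The actin readings were lowest in Nas497, as the subunits were, but also lower in Nas496, where the subunits were highest, than in Nas484 and Nas518. The same reading of Gapdh gave -0.037, 0.016 and 0.16 for WT against -0.044, 0.18 and -0.058 for Rac1-/- mice, highest in Nas497. Markers of skeletal muscle, a mitochondria-rich tissue, were uneven between the mice. Their summed intensity over 13 genes was 3733, 1184 and 2636 in WT and 4199, 1824 and 1355 in Rac1-/- mice, with no gene at the floor value. Nas496 was highest as for the subunits, whereas Nas483, where the subunits were above their mean, was lowest. The part of these measures in the subunit values was not tested. Single mice set the size of the subunits' shift. Without Nas497 the median difference was 0.084 and 16 of 34 had the lower mean, and without Nas496 it was -0.56 and 29 of 34 had the lower mean. Without Nas496 the groups no longer overlapped in 11 subunits (Ndufs8, Ndufa4, Ndufa5, Ndufa8, Ndufb3, Ndufb8, Uqcrfs1, Uqcrq, Cyc1, Cox4i1 and Cox8a, 32.4%), all lower in Rac1-/- glands. Over all genes 10.5% lay below WT in this way, and still no subunit passed the adjusted test. Nas496 was the mouse where these same subunits were highest, so their share is not alike to the one over all genes. Leaving out any other single mouse gave 0 to 3 subunits below WT.

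**Figure D4:**
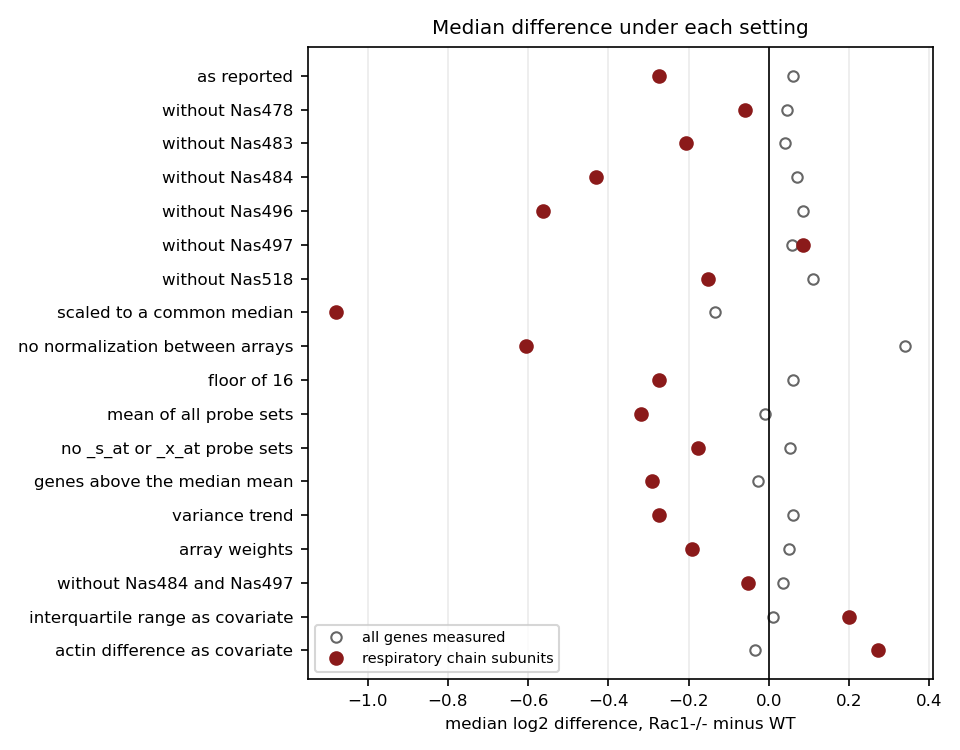
Median log2 difference (Rac1-/- minus WT) of the subunits (filled) and of all genes measured (open) as reported and under each of the 17 other settings. The subunit median lies between -1.08 (common median) and 0.27 (actin covariate).

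Different probe sets of the same subunit gave different pictures of the mice. The 34 subunits had 77 single-symbol probe sets, 12 genes with 1 and 22 with up to 6, and in 7 of these 22 genes the differences had both signs. Of the 43 probe sets not used above, 34 had the lower mean in Rac1-/- glands and 9 the higher. None of the 77 reached an unadjusted p under 0.05 in limma (2.18% of all 45101 probe sets did so below and 1.86% above). The groups did not overlap in 1 of them below WT, a dim probe set of Ndufs4 with 5.19, 5.29 and 6.37 in WT and 5.06, 4.64 and 5.17 in Rac1-/- mice. In 1 they did not overlap above WT, a probe set of Cycs with 8.48, 8.67 and 8.19 in WT and 8.82, 8.83 and 9.36 in Rac1-/- mice. Over all probe sets this was the case for 4.86% below and 4.60% above. All 4 Cycs probe sets had the higher mean in Rac1-/- glands (0.45, 0.83, 0.56 and 0.62), and all 3 of Cox8a and all 6 of Ndufs8 the lower.

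The spread between mice went with the kind of probe set. Names ending in a plain _at mark probes meant for 1 transcript, _a_at probes shared by transcripts of 1 gene, and _s_at or _x_at probes that can match other genes. Over the 40 plain probe sets of the subunits the median deviation from the 6-mouse mean was 0.27, 0.055 and -0.063 for WT, against 0.27, -0.18 and -0.28 for Rac1-/- mice. Over the 37 others it was 0.60, 0.47 and -0.58 for WT, against 0.70, -0.74 and -0.64 for Rac1-/- mice. The median difference between genotypes was -0.090 for the plain probe sets (27 of 40 lower) and -0.34 for the others (31 of 37 lower). Over all genes the corresponding medians were -0.019 for 27000 plain and -0.16 for 7958 other probe sets. The median deviation of those 7958 was 0.25, 0.20 and -0.084 for WT, against 0.21, -0.22 and -0.074 for Rac1-/- mice. That of the 27000 plain ones lay between 0.042 and 0.089 in every mouse. Cox5a shows the contrast. Its plain probe set had 9.89, 9.75 and 8.45 in WT and 10.23, 9.20 and 9.88 in Rac1-/- mice, a difference of 0.41, while its _x_at probe set had 9.07, 9.40 and 6.94 in WT and 8.87, 3.71 and 6.68 in Rac1-/- mice, a difference of -2.05. Cox6c was lowest in Nas497 on its _a_at probe set (9.20) and lowest in Nas518 on its plain one (8.74).

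**Figure D5:**
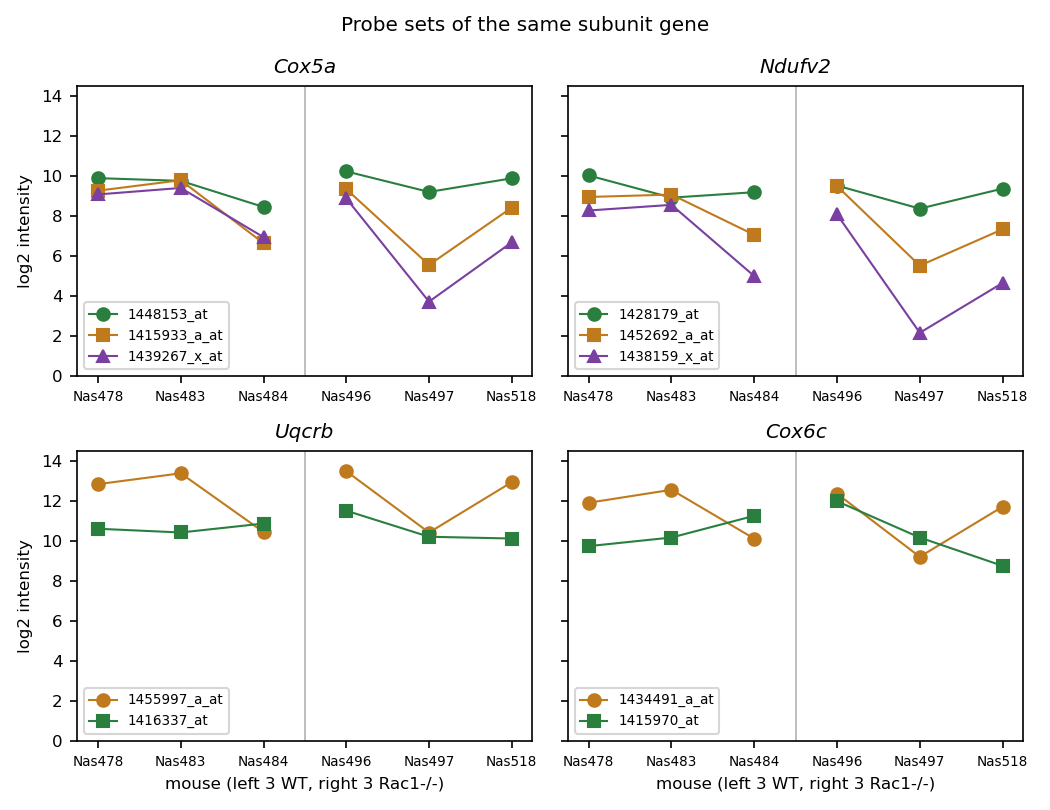
Log2 intensity of every single-symbol probe set of Cox5a, Ndufv2, Uqcrb and Cox6c in the 6 mice, WT left of the line and Rac1-/- right, coloured by kind (green plain _at, orange _a_at, purple _x_at). The _a_at and _x_at probe sets are all lowest in Nas497, down to 2.15 for Ndufv2, and the plain ones are lowest in Nas484, Nas497 or Nas518. These 4 genes were chosen after their values were seen.

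Other mitochondrial gene lists were read in the same way, and no gene of any list passed the adjusted test. Of 24 further subunits of complexes I to IV, 19 had the lower mean in Rac1-/- glands (median -0.22), and Ndufb1, an accessory subunit of complex I, had the smallest p with a difference of -1.29 (SE 0.68). Of 38 assembly factors, which build the complexes but are not part of them, 31 had the lower mean (median -0.26), against 46.1% of all genes. In 3 of the 38 the groups did not overlap below WT, against 4.2% of all genes. The smallest p was that of Ttc19, a complex III factor, with 7.09, 7.09 and 8.40 in WT and 6.78, 5.94 and 6.81 in Rac1-/- mice. Of 16 ATP synthase subunits, 9 had the lower mean (median -0.07), with Atp5e at -1.48 (SE 0.74). Of 12 enzymes of the tricarboxylic acid cycle, 7 had the lower mean (median -0.15), and Ogdh, a subunit of the oxoglutarate dehydrogenase complex, lay below WT in every Rac1-/- mouse (7.29, 7.12 and 7.65 against 6.95, 6.26 and 5.67). It was the only 1 of the 12 whose groups did not overlap.

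Among 17 regulators of mitochondrial biogenesis, 11 had the lower mean (median -0.41). Ppargc1b, a coactivator that drives respiratory gene expression, had 6.22, 5.73 and 6.02 in WT and 4.99, 4.90 and 5.35 in Rac1-/- mice. Its difference was -0.91 (SE 0.43, adjusted p = 0.946 in limma). It was the only gene of this list whose groups did not overlap, and 4.2% of all genes lay below WT in this way. The differences of the factors named with the promoters were 0.19 for Nrf1, -0.33 for Gabpa and -0.53 for Yy1, with overlapping groups in each. Of 20 carriers, pores and import proteins, 8 had the lower mean (median 0.058), with Timm23, a channel of the inner membrane import machinery, at 0.77 (SE 0.45) and above WT in every Rac1-/- mouse. In the same list Vdac1, the outer membrane pore, lay below WT in every Rac1-/- mouse, at -0.65 (SE 0.44). Each was the only 1 of the 20 without overlap in its direction, against 5.41% of all genes above WT and 4.2% below. The only mitochondrially encoded gene measured, ND5 of complex I, had 13.76, 13.36 and 15.02 in WT and 13.55, 13.86 and 15.02 in Rac1-/- mice and was high in Nas484 and Nas518, both low for the median subunit. Tissue-restricted isoforms (8 genes, median 0.055, Cox6b2 at 1.03) and glycolysis enzymes (14 genes, median -0.012, Aldoc at -1.29) had medians close to that of all genes.

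Facts of the whole series bear on these values as follows. Rac1 itself had 9.31, 9.50 and 8.97 in WT and 9.51, 9.01 and 9.84 in Rac1-/- mice, and whether this probe set lies in the deleted part is not given in the sources used here. The gland was recognisable by its milk secretion markers, of which 10 of 10 had the lower mean in Rac1-/- glands (median -1.51, Glycam1 at -3.62). In 7 of them the groups did not overlap, against 4.2% of all genes that lay below WT in this way. Their summed intensity was 237954 to 279373 in WT and 96279 to 141967 in Rac1-/- mice, so these markers of secretory cells separated the groups where the subunits did not. The difference between both lists was not tested. Of other cell types, 10 of 10 macrophage markers and 6 of 8 luminal markers had the higher mean (medians 0.67 and 0.57, Msr1 at 0.83 and Cldn4 at 1.54), as did 9803 of 18194 genes. The groups did not overlap, above WT, in 2 macrophage and 3 luminal markers, against 5.41% of all genes. Summed intensities overlapped for macrophage markers (2078 to 3690 in WT, 3067 to 5870 in Rac1-/- mice). For luminal markers they were 5007 to 5630 in WT and 6598 to 7621 in Rac1-/- mice. Of 7 brown adipocyte markers, another mitochondria-rich type, 4 had the higher mean and 3 the lower (median 0.29). Their summed intensity was 2370 to 4808 in WT and 700.3 to 1497 in Rac1-/- mice, carried by the bright genes Fabp3 (-2.27) and Cidea (-2.50), while Dio2 (1.49) lay above WT in every Rac1-/- mouse. Ucp1, which defines that type, lay between 4.67 and 6.39, below the median mean of all genes, as Elovl3, Otop1 and Zic1 did. The sum therefore follows Fabp3 and Cidea and is not a measure of brown adipocytes. Which cells expressed these genes was not tested. The medians were 0.060 for white adipocyte markers (Pparg at -0.81), 0.18 for myoepithelial (Acta2 at 1.24), 0.17 for fibroblast (Dcn at 0.23), -0.098 for endothelial (Cd34 at 0.40), 0.42 for lymphocyte (Cd8a at 0.86) and -0.26 for skeletal muscle markers (Myl1 at 0.93), and -0.034 for 46 cytosolic ribosomal proteins (Rps27 at -1.45). In parentheses is the gene of each list with the smallest p, apart from Fabp3 and Dio2, which were chosen with Vdac1 after their values were seen.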

How the data were processed

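Glands from 3 WT and 3 Rac1-/- animals, collected at involution day 2, were each measured on 1 Affymetrix mouse array. The authors amplified the RNA with a kit for small, low-quality inputs and deposited 45101 linear intensities per array, 1 for each probe set. The summary method is not given in the sources used here. Every array has a mean of 100 once 2% of its values are trimmed at either end, so the arrays were scaled singly. An array has no read depth, so the number of mice sets the precision.

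The intensities were quantile normalised (limma 3.58.1, R 4.3.3), raised to 1 where lower, and log2-transformed. Probe sets naming several genes (932) or none (9211) were dropped, and a gene took its brightest probe set. Genotypes were compared with lmFit and eBayes, Benjamini-Hochberg adjusted over 18194 genes, and the script was tested on simulated data. An exact permutation test of 3 against 3 mice cannot go below p = 0.1 and was not used. Other probe sets were read from a fit of all 45101. Values in every mouse are given for the 12 subunits with the smallest p and for Ndufs1, Sdha, Uqcrc1, Cycs and Cox4i1, and in each other list the gene with the smallest p is named. Others were chosen after their values were seen. The members and lists were chosen with earlier results of these data known. Alternatives left out mice or changed the normalisation, floor, probe set rule, filter, variance model, weights or covariates.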

Additional observations from a re-analysis of the deposited data

How the results depend on the processing

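The adjusted test called 0 subunits under each of the 17 alternatives. The median difference, -0.27 as reported, ran from -0.56 to 0.084 when single mice were left out. It was -1.08 after scaling to a common median, where the median of all genes was -0.13 and that of genes above the median mean -0.57, and 0.27 with the actin covariate. It was -0.61 without normalisation between arrays (all genes 0.34), 0.20 with the interquartile range as a covariate, -0.18 without _s_at and _x_at probe sets and -0.05 without Nas484 and Nas497. The cause of these shifts was not tested. The actin reading was lower in every Rac1-/- mouse than in every WT mouse. With that covariate its part and that of genotype cannot be told apart. At an unadjusted p under 0.05, 0 to 2 subunits were lower when single mice were left out (Ndufs8 and Uqcrq without Nas496, where 2.94% of all genes were lower), 2 were lower with the mean of all probe sets (Uqcrq and Cox8a, 2.44% of all genes), and 3 were higher with the actin covariate (Sdha, Uqcrb and Cox7c, 2.79% of all genes). With single mice left out, subunits without overlap numbered 0 to 11 below WT, where 6.6% to 11.9% of all genes lay, and 0 to 2 above, where 7.87% to 16.8% lay. The 11 were found without Nas496, the mouse where the subunits were highest, and any other single mouse left out gave 0 to 3. Without Nas484 and Nas497 there were 4 below (17.9% of all genes) and 1 above (21.0%), with the mean of all probe sets 2 below (5.75%) and 1 above (4.83%), and without normalisation 1 below (3.28%).

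Of 255 alternative values of the 15 subunits named by the rule, 27 changed sign. As 12 of the 15 were picked for the smallest p, this share does not stand for all subunits. Among the others, the sign changed in 0 of 16 alternatives for Cox7c and up to 10 of 17 for Cox5b, with Uqcrc2 next at 7. With single mice left out, Sdha ran from -0.69 to 0.76, Sdhc from -1.29 to 0.39 (without Nas484), Uqcrc1 from -0.56 to 0.14 (without Nas497) and Cycs from -0.095 (without Nas484) to 0.85. Leaving out both Nas484 and Nas497 gave 0.13 for Sdha, 0.60 for Sdhc and 0.50 for Uqcrc1. A common median gave -0.55 for Ndufs3, -0.12 for Ndufa9 and -0.58 for Cycs. No normalisation gave -0.083 for Ndufs3, 0.067 for Uqcrc1 and -0.11 for Cycs. Array weights gave 0.023 for Sdhc and 0.13 for Uqcrc1. The interquartile range as a covariate gave 0.20 for Ndufs7, 0.11 for Ndufb8, 1.09 for Sdha and 0.067 for Uqcrq. The actin covariate gave 0.16 for Ndufs1, 0.36 for Ndufb8, 1.79 for Sdha, 0.21 for Uqcrc1 and 0.39 for Uqcrq. No paired analysis was possible because the labels give separate animals by their own IDs and no number that ties a WT mouse to a Rac1-/- mouse.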
